A study of Homo sapiens with 9 samples.

Results

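Transcription of the core genes of the G1 to S step of the cell cycle was followed in MEC1 cells, an established cell line of chronic lymphocytic leukemia (CLL), in 2D culture and in a bioprinted hydrogel scaffold. The 10 genes were taken by name from a count table of 59050 gene symbols: the D cyclins CCND2 and CCND3, their kinases CDK4 and CDK6, the E cyclins CCNE1 and CCNE2, their kinase CDK2, the inhibitor CDKN1B, the pocket protein RB1 and the transcription factor E2F1. RNA was sequenced from 3 samples in 2D, 3 samples bioprinted in a 3D hydrogel and taken after 7 days (3D_7d) and 3 taken after 14 days (3D_14d). The labels name no drug or other agent for any group and no time point for 2D. All samples are 1 cell line, and a primary CLL cell was not part of this comparison. The sample titles carry the letters PGK after MEC, which the labels do not explain, so that a modified MEC1 line cannot be told from the parental one. RNA of the scaffolds was extracted with TRIzol, treated with DNase I and then purified on a column. RNA of the 2D cultures was purified on the column alone, with washes that included DNase. For any difference between 2D and 3D, culture and extraction therefore cannot be told apart, while 3D_7d and 3D_14d were extracted in the same way. As these are bulk samples, fewer cycling cells and less RNA of a gene per cell cannot be told apart either.

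D cyclins bind CDK4 and CDK6 and carry mitogen signals into the cell cycle, and in B cells this signal comes in large part from the B-cell receptor. The kinases phosphorylate RB1, which otherwise holds E2F factors inactive on the promoters of genes for DNA replication. Released E2F factors induce the E cyclins and E2F1 itself, and cyclin E with CDK2 completes the phosphorylation of RB1, a step that p27, the product of CDKN1B, restrains. CLL cells in blood are mostly arrested before this step and are known for high p27, while proliferation takes place in the lymph node.

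Promoter sequences of RefSeq (GRCh38.p14) were given for 7 of the 10 genes, in 10 entries, and not for CCND2, CCNE2 and CDK2. In the 250 bases before each start, both strands were searched for an E2F motif (TTTGGCGC or TTTCGCGC), the E-box CACGTG, which MYC and related factors can bind, and the CHR element (TTTGAA or TTCGAA) of the MuvB complexes. Among 35116 promoters, 0.968% held the E2F motif, 6.34% the E-box and 14.3% the CHR element, and the matches in these genes do not overlap each other. Only E2F1 and CDK4 held a match in these windows, where the entries of CCND3 and RB1 and 1 of the 2 of CDK6 lie inside the gene body of the counting annotation. Both are shown, as E2F1 stands for the E2F factors, whose target genes are described later, and CDK4 for the D cyclin kinases that were lowest at day 14. The E2F1 sequence is chr20:33686386-33686635 and the CDK4 sequence is chr12:57752448-57752560, both on the minus strand, 5′ to 3′, with the matches in capitals. Neither stretch contains an exon of the annotation used for counting.

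E2F1: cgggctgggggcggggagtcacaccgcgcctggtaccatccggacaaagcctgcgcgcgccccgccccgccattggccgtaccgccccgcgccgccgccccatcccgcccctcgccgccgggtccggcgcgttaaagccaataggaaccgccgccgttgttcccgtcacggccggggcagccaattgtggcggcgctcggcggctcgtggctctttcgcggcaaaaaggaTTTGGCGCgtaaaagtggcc
CDK4: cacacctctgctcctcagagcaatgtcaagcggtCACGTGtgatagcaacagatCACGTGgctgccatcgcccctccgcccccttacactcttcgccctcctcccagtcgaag

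In E2F1, the 1 E2F motif lay 20 to 13 bases before the start. In CDK4, 3 E-boxes lay within the 250 bases, of which the 2 printed ones began 216 and 196 bases before the start and the other one, at 101 bases, fell inside the gene body of the counting annotation. A match describes the letters of the window and is not a measured binding site.

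Libraries held 54662799 to 85968686 counts. The 10 genes held 57 (CCNE2) to 16790 (CCND3) counts per sample, and all of them passed the filter of a CPM (counts scaled to library size) of more than 1 in at least 3 samples, as did 13463 genes in all. CPM values are scaled with the TMM method of edgeR. Replicates differed by more than counting error, and the pairs within 3D_14d differed most, with 155 to 305 in chi-square units per gene, against 22.5 to 81.9 within the other groups. Replicate 1 of 3D_14d lay furthest from the others, and results of the 10 genes at day 14 are therefore given without it where they rest on it. Ribosomal protein genes made up 4.10 to 4.82% of counts in 2D, 1.66 to 1.82% in 3D_7d and 1.88 to 3.27% in 3D_14d. Immunoglobulin genes made up 1.25 to 1.31% in 2D, 4.47 to 5.24% in 3D_7d and 5.0 to 7.14% in 3D_14d. With scaling that left out both classes and mitochondrial genes, 29 of the 30 fold changes of the 10 genes kept their direction and their side of the threshold, and CDKN1B became higher between the days. B cell markers summed to 2635 to 2651 CPM in 2D, 2875 to 3636 in 3D_7d and 3612 to 3981 in 3D_14d, led by MS4A1 or CD79A, and 7 of 8 were tested, since CD5 stayed below 1 CPM in all samples. CD22 of this list was lower than in 2D at day 7 (-1.12 on the log2 scale) and at day 14 (-0.71). Markers of T and NK cells summed to at most 6.69 CPM, with 6 of 7 below 1 CPM in all samples of a group. Those of monocytes summed to at most 5.17, with 3 of 4 below 1, and ITGAM went from 0.938 to 1.76 in 2D to 3.12 to 4.76 in 3D_14d. Those of stromal cells summed to at most 11.4, with 2 of 4 below 1 in 2D. There COL1A1 was at 6.72 to 7.36 and PDGFRB at 3.10 to 4.57, and in 3D_7d they were at 1.48 to 4.47 and 0.255 to 0.569. The NK marker KLRD1 was called higher at day 7 (2.04) and at day 14 (3.07), from 0.362 to 0.872 CPM in 2D to 3.98 to 6.02 in 3D_14d, and its part in the results was not tested.

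A gene was called when the quasi-likelihood test of edgeR gave an adjusted p of at most 0.05 (Benjamini-Hochberg, over all 13463 genes). At day 7, CCND2, CCNE1 and CCNE2 rose against 2D and CDK6 and CDKN1B fell, 5 of the 10 genes, beside 43.4% of all tested genes. At day 14, CCND2, CCND3, CCNE1 and RB1 were higher than in 2D, and CCNE2, CDK4, CDK6, CDK2 and CDKN1B were lower, 9 of the 10, beside 36.2% of all tested genes. From day 7 to day 14, CCND2, CCNE2, CDK4 and CDK2 fell, 4 of the 10, and none was called higher, beside 28.1% of all tested genes. The counts at day 7 and between the days are near the share of all genes. The count of 9 at day 14 became 5 without replicate 3 of 2D, where 1564 genes were called higher and 1640 lower of 13163, and 8 without replicate 1 of 3D_14d. By direction, 22.2% of all genes were called higher and 21.2% lower at day 7, 19.0% and 17.2% at day 14, and 14.5% and 13.6% between the days. Across the 10 genes the median log2 fold change was 0.39 at day 7, -0.51 at day 14 and -0.36 between the days, beside medians of -0.00395, 0.0228 and -0.00125 over all genes. Both comparisons against 2D share the same 2D samples. The labels do not state whether replicates were separate cultures, so p-values measure the spread between these samples, which may be technical.

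**Figure D1:**
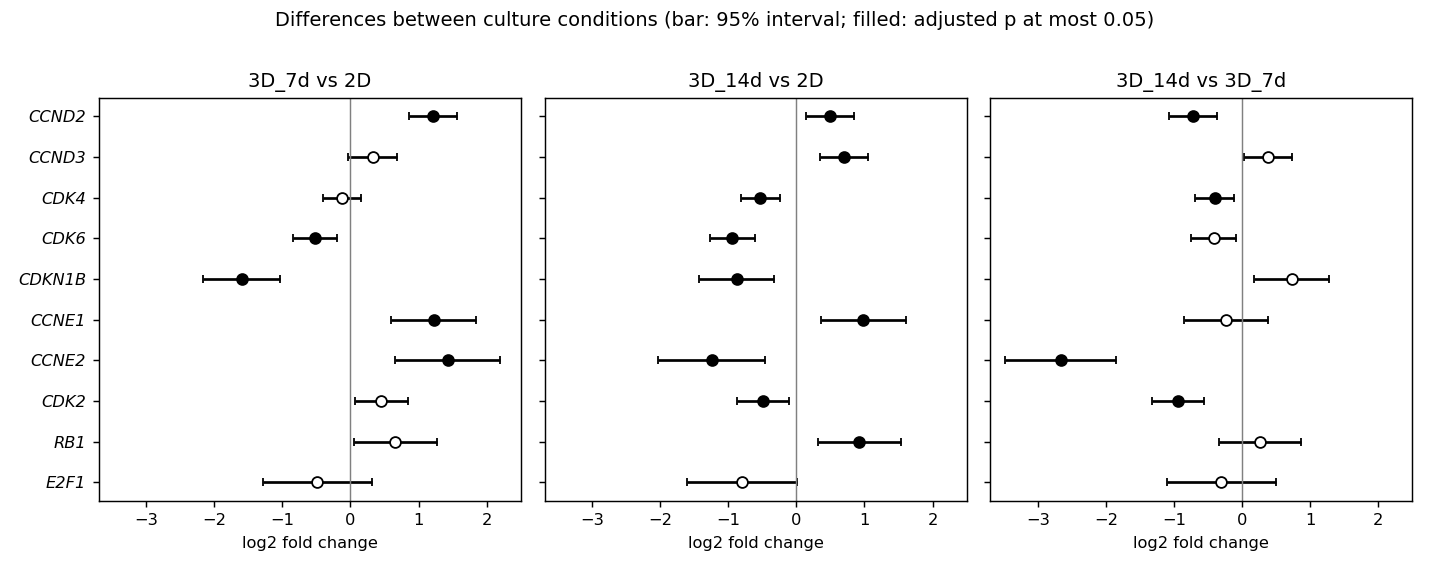
Log2 fold change (x axis) of each of the 10 genes (y axis) for day 7 against 2D, day 14 against 2D and day 14 against day 7, with 95% intervals from the edgeR model of 9 samples. Filled points are called at an adjusted p of at most 0.05. CCNE2 lies at 1.43 at day 7, at -1.24 at day 14 and at -2.67 between the days, and the points of CDK6 and CDKN1B lie left of 0 at both days.

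CCND2 (chr12:4273762-4305353, plus strand) encodes cyclin D2, a D cyclin that B cells induce on receptor signals. Its CPM in the 2D samples was 60.8, 60.7 and 64.2, at day 7 it was 117, 165 and 149, and at day 14 it was 71.9, 91.3 and 98.0. All samples of day 7 lay above all of day 14, and all of day 14 above all of 2D. CCND2 rose by 1.21 ± 0.16 (SE) on the log2 scale at day 7 (adjusted p = 0.000127), a change of 2.32-fold, and fell by 0.72 from day 7 to day 14 (adjusted p = 0.00698). These calls held in each of the 9 fits that left out a sample. The remaining difference of day 14 to 2D was 0.49 (adjusted p = 0.0316) and depended on the libraries and the filter. It was not called without 2D replicate 1 (0.45), 2 (0.44) or 3 (0.48), without 3D_7d replicate 3 (0.47), or without 3D_14d replicate 2 (0.46) or 3 (0.40), nor with libraries scaled by total counts alone (0.30), with the filter of filterByExpr (0.48) or with no filter (0.43). Of the exonic bases of CCND2, 15.4% are shared with AC008012.1, which was at no more than 0.118 CPM in any sample.

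CCND3 (chr6:41934933-42050357, minus strand) encodes cyclin D3, the D cyclin of cycling germinal center B cells. Its CPM was 176, 181 and 158 in 2D, 241, 178 and 225 in 3D_7d and 295, 313 and 226 in 3D_14d. The lowest sample of day 7 fell between the 2D samples, and all samples of day 14 exceeded all of 2D. The log2 difference to 2D was 0.32 at day 7 (95% interval -0.03 to 0.68, adjusted p = 0.126), called with only the 6 samples of that comparison (0.31), and CCND3 rose by 0.70 ± 0.16 at day 14 (adjusted p = 0.00558), a call that held in each fit without a sample. Between the days the difference was 0.37 (adjusted p = 0.105), and it was called without 3D_14d replicate 3 (0.50) and with a trend with gene length removed, alone (0.51) or with the replicate number as a block (0.50).

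Because counts per length can be compared between genes, CPM was divided by the summed exon length in kilobases (RPKM). CCND2 made up 16.9 to 19.8% of the summed RPKM of CCND2 and CCND3 in 2D, 22.7 to 36.0% in 3D_7d and 12.9 to 20.8% in 3D_14d. The day 7 range lay above the others, which overlapped. The geometric mean of the CCND3 to CCND2 ratio was 4.56 in 2D, 2.47 in 3D_7d and 5.25 in 3D_14d. With 3 against 3 samples, an exact two-sided permutation test cannot give a p under 0.1, and the test reached 0.1 for day 7 against 2D and for day 14 against day 7 (0.136 after Benjamini-Hochberg adjustment over 15 tests of 5 ratios), and 0.5 for day 14 against 2D. Cyclin D3 was thus the larger D cyclin transcript in all 9 samples. CCND1, the D cyclin outside these genes and shares, was at means of 5.19 RPKM in 2D, 4.11 in 3D_7d and 3.75 in 3D_14d. Its log2 differences to 2D were -0.33 (adjusted p = 0.224) at day 7 and -0.47 (adjusted p = 0.106) at day 14. Although not called, its samples of day 14 lay below those of 2D without overlap.

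**Figure D2:**
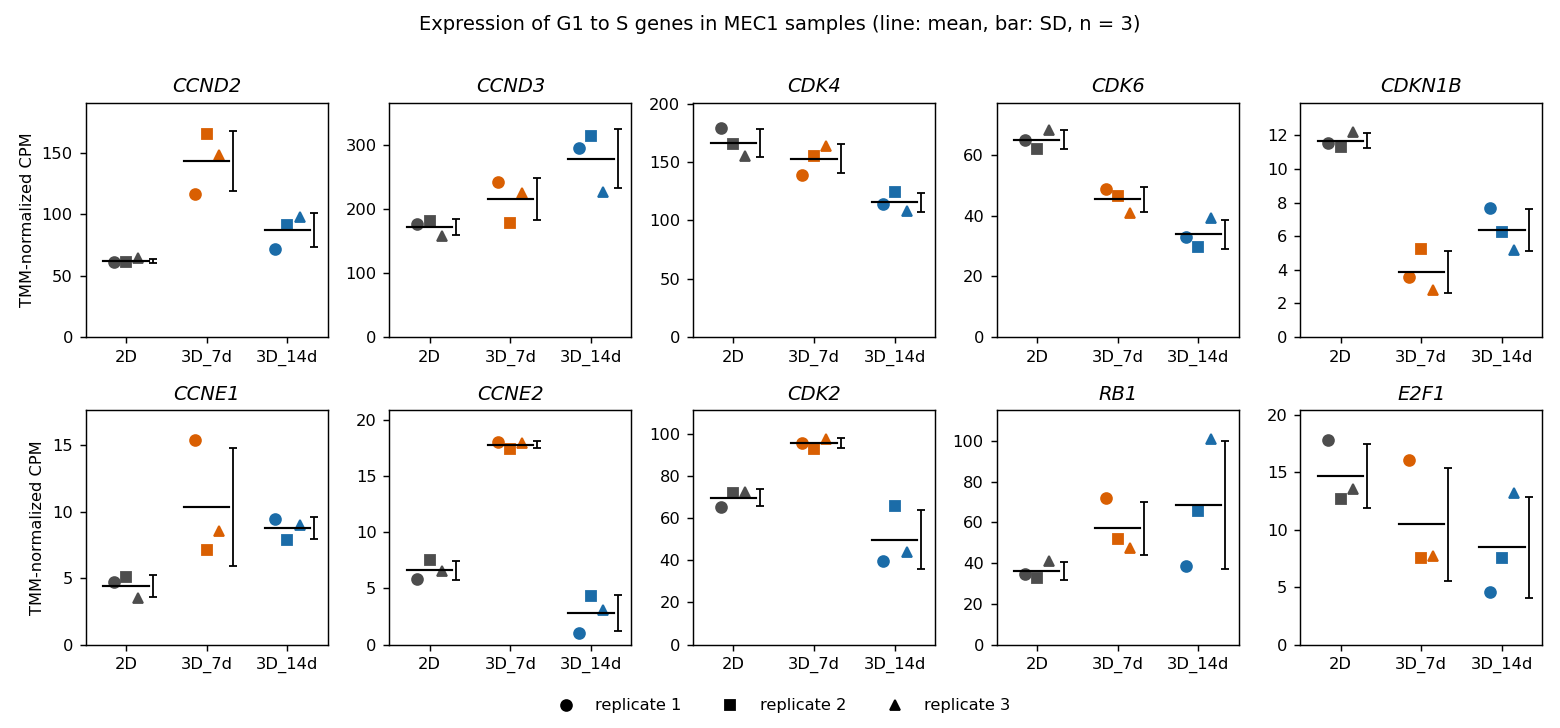
TMM-normalized CPM (y axis, from 0) of each of the 10 genes in the 9 samples, by culture condition (x axis). Symbols mark the replicate, lines the mean and bars the SD of the 3 samples. CCNE2 stands at 17.4 to 18.0 CPM at day 7 and at 1.05 to 4.29 at day 14, and RB1 at day 14 spreads from 38.8 to 101.

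CCNE1 and CCNE2 encode the E cyclins, which activate CDK2 at the entry into S phase and are both E2F targets. CCNE1 (chr19:29811991-29824312, plus strand) was at 4.69, 5.10 and 3.50 CPM in 2D, at 15.4, 7.10 and 8.51 in 3D_7d and at 9.42, 7.87 and 9.0 in 3D_14d. Every 3D sample exceeded every 2D sample, and the days overlapped, with replicate 1 of day 7 far above the others. CCNE1 rose by 1.22 ± 0.29 on the log2 scale at day 7 (adjusted p = 0.00447), or by 0.80 without that replicate, still called. At day 14 it was 0.98 higher than in 2D (adjusted p = 0.0178), a call lost without 2D replicate 3 (0.80) and with total counts alone (0.78). Between the days the difference was -0.24 (95% interval -0.85 to 0.37), and it was 0.17 without 3D_7d replicate 1.

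For CCNE2, the CPM was 5.82, 7.51 and 6.53 in 2D, 18.0, 17.4 and 17.9 in 3D_7d and 1.05, 4.29 and 3.07 in 3D_14d. The groups did not overlap, with day 7 on top and day 14 at the bottom, and the 3 samples of day 7 were nearly alike. CCNE2 rose by 1.43 ± 0.36 on the log2 scale at day 7 (adjusted p = 0.00641) and fell by 2.67 ± 0.38 from day 7 to day 14 (adjusted p = 0.000537), to 0.157 times its level. Against 2D, the log2 fold change at day 14 was -1.24 (adjusted p = 0.0180). The lowest sample, replicate 1 of day 14, held 57 counts, and without it the differences of day 14 were -0.85 to 2D and -2.26 to day 7, both called. All these calls held in each of the fits that left out a sample. CCNE2 lies on chromosome 8 and shares 47.6% of its exonic bases with INTS8 and AC087752.4 on the opposite strand, and the library kit does not mark the strand. INTS8 was at 43.0 to 49.2 CPM in 2D, 64.9 to 78.1 in 3D_7d and 41.6 to 48.4 in 3D_14d, and its part in the CCNE2 counts was not tested.

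Relative to CCNE1 per length, CCNE2 was at a geometric mean ratio of 0.872 in 2D, 1.06 in 3D_7d and 0.159 in 3D_14d. It supplied 41.9 to 51.9% of E cyclin RPKM in 2D, 40.4 to 58.7% in 3D_7d and 6.08 to 24.0% in 3D_14d. Day 14 lay below both other groups without overlap (exact permutation p = 0.1 for each, adjusted 0.136), while day 7 and 2D overlapped (exact permutation p = 0.5). Both E cyclins were higher than in 2D at day 7, and at day 14 CCNE1 stood above and CCNE2 below its level in 2D.

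CDK4 and CDK6 are the kinases of the D cyclins. CDK4 was at 179, 165 and 155 CPM in 2D, at 139, 156 and 164 in 3D_7d and at 114, 124 and 108 in 3D_14d. Day 7 overlapped 2D, and day 14 lay below both. The log2 difference at day 7 was -0.12 (95% interval -0.41 to 0.16, adjusted p = 0.472), and CDK4 fell by 0.53 ± 0.13 at day 14 against 2D (adjusted p = 0.00800), a call that held in each fit without a sample. The difference between the days, -0.40 (adjusted p = 0.0376), was not called without 2D replicate 1, 2 or 3 (-0.39 each), without 3D_7d replicate 2 (-0.38) or 3 (-0.33), without 3D_14d replicate 3 (-0.36), with only the 6 samples of that comparison (-0.38), with filterByExpr (-0.42), with no filter (-0.46) or with the replicate number as a block (-0.41). CDK4 (chr12:57747727-57752447, minus strand) shares 53.8% of its exonic bases with TSPAN31 on the other strand. TSPAN31 was at 40.5 to 44.6 CPM in 2D, 49.1 to 60 in 3D_7d and 56.0 to 80.5 in 3D_14d, and its part in the CDK4 counts was not tested.

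CDK6 (chr7:92604921-92836594, minus strand) followed the same order. Its CPM was 64.9, 62.1 and 68.2 in 2D, 48.8, 46.6 and 40.8 in 3D_7d and 32.8, 29.7 and 39.1 in 3D_14d. Each group lay below the one before it without overlap. CDK6 fell by 0.52 ± 0.15 on the log2 scale at day 7 (adjusted p = 0.0139) and by 0.94 ± 0.15 at day 14 (adjusted p = 0.000537), both against 2D and both called in each fit that left out a sample, the call at day 7 being lost with no filter (-0.52). The step between the days was -0.42 (adjusted p = 0.0523), called with DESeq2 (-0.41) and without 3D_14d replicate 3 (-0.53). No exonic base of CDK6 is shared with another gene. Per length, CDK6 was the minor kinase transcript: its ratio to CDK4 had a geometric mean of 0.0667 in 2D, 0.0507 in 3D_7d and 0.0498 in 3D_14d. Both 3D groups lay below 2D without overlap (exact permutation p = 0.1, adjusted 0.136), and they overlapped each other (exact permutation p = 0.8).

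CDK2 (chr12:55966821-55972789, plus strand) is the kinase of the E cyclins. Its CPM was 65.0, 71.6 and 72.2 in 2D, 95.7, 92.9 and 97.6 in 3D_7d and 39.6, 65.7 and 43.6 in 3D_14d. Day 7 lay above both other groups, and replicate 2 of day 14 fell among the 2D samples. CDK2 fell by 0.94 ± 0.18 on the log2 scale from day 7 to day 14 (adjusted p = 0.00283), a call that held in each fit that left out a sample. The difference at day 7 against 2D, 0.45 on the log2 scale, missed the threshold (adjusted p = 0.0542) although the groups did not overlap, and it was called with DESeq2 (0.44), with only the 6 samples of that comparison (0.44), with the replicate number as a block (0.46), with the length trend removed (0.45) or with both (0.46), and without 3D_14d replicate 1 (0.44) or 2 (0.45). The difference at day 14 against 2D, -0.49 (adjusted p = 0.0476), was lost without 2D replicate 1 (-0.57), 2 (-0.50) or 3 (-0.50), 3D_7d replicate 2 (-0.51), or 3D_14d replicate 1 (-0.35) or 3 (-0.40), and was -0.74 without 3D_14d replicate 2. It was also lost with only the 6 samples of that comparison (-0.51), with filterByExpr (-0.49) and with no filter (-0.53). AC025162.1, which shares 12% of the exonic bases of CDK2, was at 0.314 to 2.83 CPM.

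CDKN1B (chr12:12717368-12722369, plus strand) encodes p27, which inhibits cyclin E with CDK2 and is abundant in resting cells. The CPM was 11.6, 11.3 and 12.2 in 2D, 3.54, 5.23 and 2.81 in 3D_7d and 7.65, 6.26 and 5.20 in 3D_14d. Every 3D sample lay below every 2D sample, and the days overlapped by a narrow margin, as the highest value of day 7 exceeded the lowest of day 14. CDKN1B fell by 1.6 ± 0.26 on the log2 scale at day 7 (adjusted p = 0.000424), to 0.330 times its level in 2D, and was called in each fit that left out a sample. Its log2 fold change at day 14 was -0.87 (adjusted p = 0.0174), which was not called without 2D replicate 3 (-0.88) or 3D_14d replicate 3 (-0.75). The difference between the days was 0.72 (adjusted p = 0.0518), and it was called with DESeq2 (0.74), with its size factors (0.74), with TMM without the 3 gene classes (0.74), without 3D_7d replicate 2 (1.02) and without 3D_14d replicate 3 (0.85). Per length, the ratio of CDKN1B to CDK2 was 0.167 in 2D, 0.0388 in 3D_7d and 0.129 in 3D_14d (geometric means). Day 7 lay below both other groups without overlap (exact permutation p = 0.1, adjusted 0.136), and day 14 overlapped 2D (exact permutation p = 0.4).

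RB1 encodes the pocket protein that the D and E cyclin kinases inactivate. RB1 (chr13:48303726-48481890, plus strand) was at 34.6, 32.9 and 40.9 CPM in 2D, at 72.0, 51.9 and 47.4 in 3D_7d and at 38.8, 65.7 and 101 in 3D_14d. Day 7 lay above 2D, whereas replicate 1 of day 14 fell among the 2D samples and replicate 3 was the highest of all. At day 14 RB1 was 0.92 ± 0.28 higher than in 2D on the log2 scale (adjusted p = 0.0215). This call was lost without 3D_14d replicate 3 (0.53), 2D replicate 1 (0.87) or 2 (0.83) and with total counts alone (0.75), and the difference was 1.21 without 3D_14d replicate 1. The difference at day 7 was 0.66 (95% interval 0.06 to 1.26, adjusted p = 0.0729), called with no filter (0.66), with DESeq2 (0.64), with only the 6 samples of that comparison (0.64), and without 3D_14d replicate 1 (0.65) or 3 (0.66). Between the days it was 0.26 (95% interval -0.34 to 0.87), and -0.13 without 3D_14d replicate 3.

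E2F1, an activating E2F factor, was at 17.8, 12.7 and 13.5 CPM in 2D, at 16.1, 7.52 and 7.74 in 3D_7d and at 4.54, 7.57 and 13.2 in 3D_14d. In both 3D groups, 2 samples lay below 2D and 1 within its range, replicate 1 at day 7 and replicate 3 at day 14. The log2 differences to 2D were -0.49 at day 7 (95% interval -1.29 to 0.31, adjusted p = 0.304) and -0.80 at day 14 (95% interval -1.6 to 0.01, adjusted p = 0.112), so that neither was called. The value at day 14 was -1.27 and called without 3D_14d replicate 3, -0.87 and called with no filter, and -0.49 without 3D_14d replicate 1. E2F1 (chr20:33675477-33686385, minus strand) and RB1 share no exonic bases with another gene.

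Replicate 1 was highest for both E2F1 and RB1 at day 7, and replicate 3 at day 14. Their ratio per length within a sample had a geometric mean of 0.751 in 2D, 0.324 in 3D_7d and 0.225 in 3D_14d, and the groups did not overlap in any of the 3 comparisons (exact permutation p = 0.1 for each, the smallest possible, adjusted 0.136). On the log2 scale the difference of the ratio to 2D was -1.21 at day 7 and -1.74 at day 14, with a pooled SD of 0.33 and 0.24.

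**Figure D3:**
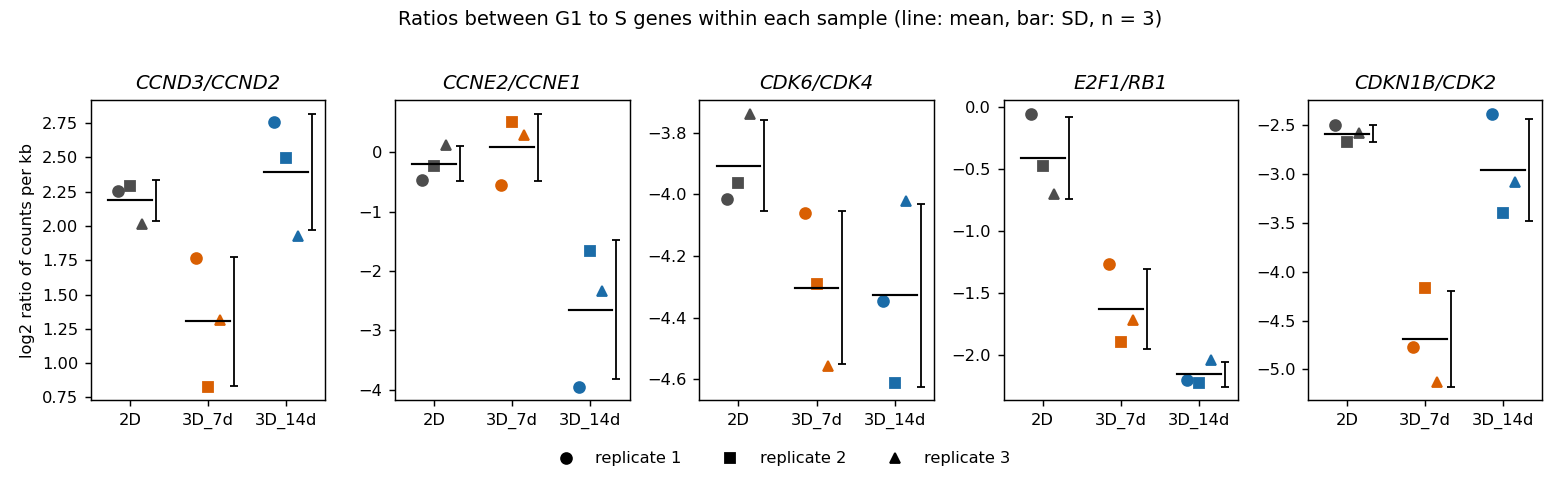
Log2 ratio of counts per kilobase of exon (y axis, a range of its own in each panel) between pairs of genes within each of the 9 samples, by culture condition (x axis). Symbols mark the replicate, lines the mean and bars the SD of 3 samples. E2F1/RB1 is lower at each later group without overlap, CCNE2/CCNE1 is low at day 14, and CCND3/CCND2 and CDKN1B/CDK2 are lowest at day 7.

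By level per length, CDK4 led in 2D with 83.2 ± 5.92 RPKM (SD, n = 3), followed by CCND3 with 43.5 ± 3.09, CDK2 with 29.1 ± 1.68, CCND2 with 9.53 ± 0.31 and RB1 with 7.21 ± 0.85, none of which overlapped its neighbour in this order. CDK6 (5.55), E2F1 (5.46) and CDKN1B (4.84) overlapped in sequence, as did CCNE1 (2.23) and CCNE2 (1.93) at the low end. At day 7 the order of the upper 5 genes was the same, and CDKN1B was last at 1.6 ± 0.51. CCNE1 (5.20), CCNE2 (5.19), E2F1 (3.88) and CDK6 (3.87) stood between them, each overlapping the next. At day 14 CCND3 (70.5 ± 11.6) and CDK4 (57.7 ± 4.01) overlapped at the top, CDK2 (20.7), RB1 (13.7) and CCND2 (13.4) followed with overlap, and CCNE2 was last at 0.817 ± 0.476, below CDKN1B at 2.64 ± 0.51. The shared bases of CDK4 and CCNE2 make their levels per length less certain than those of the other genes.

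The groups did not overlap for 7 of the 10 genes at day 7 against 2D (5 higher, 2 lower), for 7 at day 14 against 2D (3 higher, 4 lower) and for 5 between the days (all lower at day 14). Over all tested genes, these shares were 64.6%, 49.7% and 39.3%. In the same order, 32.2%, 24.2% and 18.9% of all genes were higher without overlap and 32.4%, 25.5% and 20.5% lower.

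Likeness of profiles was measured as the root mean square difference of log2 CPM, each gene centred on its mean, over the 9 samples and 8698 genes with a mean of at least 10 CPM. For CCNE2 the closest genes were CDC25A (0.333), a phosphatase that activates CDK2, and MCM4 (0.360), a subunit of the replicative helicase, beside a spread of 1.27 of CCNE2 itself about its mean. CDC25A was at a mean of 18.8 CPM in 2D, 31.3 in 3D_7d and 7.08 in 3D_14d. For CDKN1B it was RGS2 (0.117), a regulator of G protein signalling, with means of 92.3, 34.0 and 53.3 CPM. CCND2 was followed most closely by AAGAB and ACSL5 (0.10 each), CCND3 by AKT1 (0.118) and RNF135 (0.120), CDK6 by AMD1 (0.0856) and ATF7IP2 (0.0933), and CDK4 by ACD (0.0803) and BRIX1 (0.0846). The closest genes were CRACR2A (0.0771) and NIPAL3 (0.0809) for CDK2, PRKD2 (0.234) and FBXL18 (0.238) for CCNE1, MAP3K5 (0.175) and DACT1 (0.183) for RB1, SLMAP (0.196) and ZFX (0.246) for E2F1, and CCNB1IP1 (0.201) after RGS2 for CDKN1B. Among the 10 genes the closest pair was CDK4 and CDK6 (0.274) and the furthest CCNE2 and CDKN1B (1.72). These are descriptions, as all profiles share the 9 libraries.

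Other genes of the pathway were counted in 71 listed names, 68 of which passed the filter (CDKN2B, CDKN1C and CCNA1 did not). At day 7 against 2D, 13 were higher and 19 lower, at day 14 against 2D 3 were higher and 42 lower, and between the days 3 rose and 33 fell, beside 43.4%, 36.2% and 28.1% of all tested genes called in either direction. The 13 became 6 without 2D replicate 1, 8 without 2D replicate 2 or 3 or 3D_7d replicate 3, and 18 without 3D_14d replicate 1. The 3 higher at day 14 became 0 without 2D replicate 2 or 3 and 7 without 3D_14d replicate 1, and the 3 that rose between the days became 1 without 3D_7d replicate 3 and 5 without 3D_14d replicate 2. The median log2 fold changes of the 68 genes were -0.08, -1.03 and -0.52. Without the E2F target genes and the genes of G2 and mitosis described below, 35 genes were tested. Of these, 6 were higher and 5 lower at day 7, beside 22.2% and 21.2% of all genes. At day 14 the counts were 3 and 10, beside 19.0% and 17.2%, and between the days 3 and 11, beside 14.5% and 13.6%. In either direction, the count was below the share of all genes at day 7, near it at day 14 and above it between the days. The medians of the 35 genes were -0.01, -0.14 and -0.13, so that the lower values at day 14 lay mostly in the 2 lists left out.

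Among 21 E2F target genes, mostly of replication and nucleotide synthesis, 7 rose and 2 fell at day 7, beside 22.2% and 21.2% of all genes. At day 14, 20 were lower than in 2D and none was called higher, beside 17.2% and 19.0% of all genes. Of the 20, MCM5 (-0.47) was not called without 2D replicate 1 (-0.51) or 2 (-0.46) or without 3D_14d replicate 3 (-0.35). Between the days 19 fell, beside 13.6% of all genes. The 7 called higher at day 7 became 3 without 2D replicate 1 and with total counts alone. They became 12 with only the 6 samples of that comparison, where 3800 of 13083 genes were called higher. With calls limited to log2 fold changes of at least 1 in size, only MCM4 of the 7 was left. MCM3, MCM6, PCNA and SLBP also each lost the call under at least 1 other setting. The median log2 fold changes were 0.33, -1.17 and -1.39. MCM4 rose by 1.11 on the log2 scale at day 7 and fell by 2.14 from day 7 to day 14. MCM5, of the same helicase, rose by 0.92 and then fell by 1.39, and CDC6, which loads it, fell by 2.32 between the days and was at -1.70 against 2D on day 14. CDT1, the partner of CDC6, fell by 2.11 at day 7, against the direction of the median. The 12 genes of G2 and mitosis were all called lower than 2D at both days, beside 21.2% and 17.2% of all genes. Their medians were -1.31 and -1.64 on the log2 scale, and 3 fell further between the days, beside 13.6% of all genes. The kinetochore genes CENPE and CENPF had log2 fold changes of -3.6 and -2.84 at day 7, and CCNB2, a mitotic cyclin, fell by 1.51. CCNA2, the cyclin of S phase and G2, fell by 0.83 at day 7 and was at -1.80 against 2D on day 14.

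Among other regulators, CDKN2D, an INK4 inhibitor of CDK4 and CDK6, fell from 58.0 to 62.8 CPM in 2D to 18.3 to 20.5 at day 7, by 1.61 on the log2 scale, and was at 64.1 to 84.0 at day 14, a rise of 1.95 between the days. The other INK4 genes tested, CDKN2A and CDKN2C, and CDKN1A, which encodes p21, were not called in any comparison. RBL1, the pocket protein p107, was at -1.31 against 2D on day 14 (log2), and RBL2 was not called in any comparison. Of 9 other E2F and DP factors, E2F4, which mainly represses with the pocket proteins, rose by 0.75 at day 7 and TFDP2 fell by 0.52, whereas E2F2 and E2F8 were at -1.10 and -1.43 against 2D on day 14. The list of SCF ligases that degrade p27 or cyclin E held 6 genes. CKS1B, a cofactor for p27, fell by 2.03 at day 7 and was at -1.63 on day 14, and SKP2, the receptor for p27, was at -1.13 on day 14. FBXW7 of this list was at means of 39.8 CPM in 2D, 35.4 in 3D_7d and 35.6 in 3D_14d and was not called in any comparison. CUL1 and SKP1, the scaffold and the adaptor, rose by 0.81 and 0.51 at day 7, and at day 14 RBX1, the RING subunit, was 0.85 and SKP1 0.57 higher than in 2D. The calls of SKP1 were lost at both days without 2D replicate 2 (0.44 and 0.51) or 3 (0.42 and 0.49) and with no filter (0.51 each). At day 7 SKP1 was also not called without 2D replicate 1 (0.54) or 3D_7d replicate 2 (0.42) or 3 (0.45), and at day 14 with total counts alone (0.36). The call of RBX1 at day 14 was lost without 2D replicate 2 (0.77) or 3 (0.76), and RBX1 was 0.54 without 3D_14d replicate 1. Of the 5 genes of the MuvB core, LIN52 rose by 1.07 and RBBP4 by 0.56 at day 7, and LIN9 fell by 0.55 and was at -1.07 on day 14. At day 7, the call of RBBP4 was lost in 4 and that of LIN9 in 3 of the 9 fits that left out a sample. CDC25A was at -1.41 against 2D on day 14, and CDK7, CCNH and MNAT1, which activate CDKs, were not called. FOXO4, of the factors that induce CDKN1B, was 1.06 higher at day 7 (adjusted p = 0.0452), although the groups overlapped, and the call was lost in 7 of the 9 fits that left out a sample (0.70 without 3D_7d replicate 2) and with total counts alone (0.89). FOXO1 and FOXO3 were not called.

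**Figure D4:**
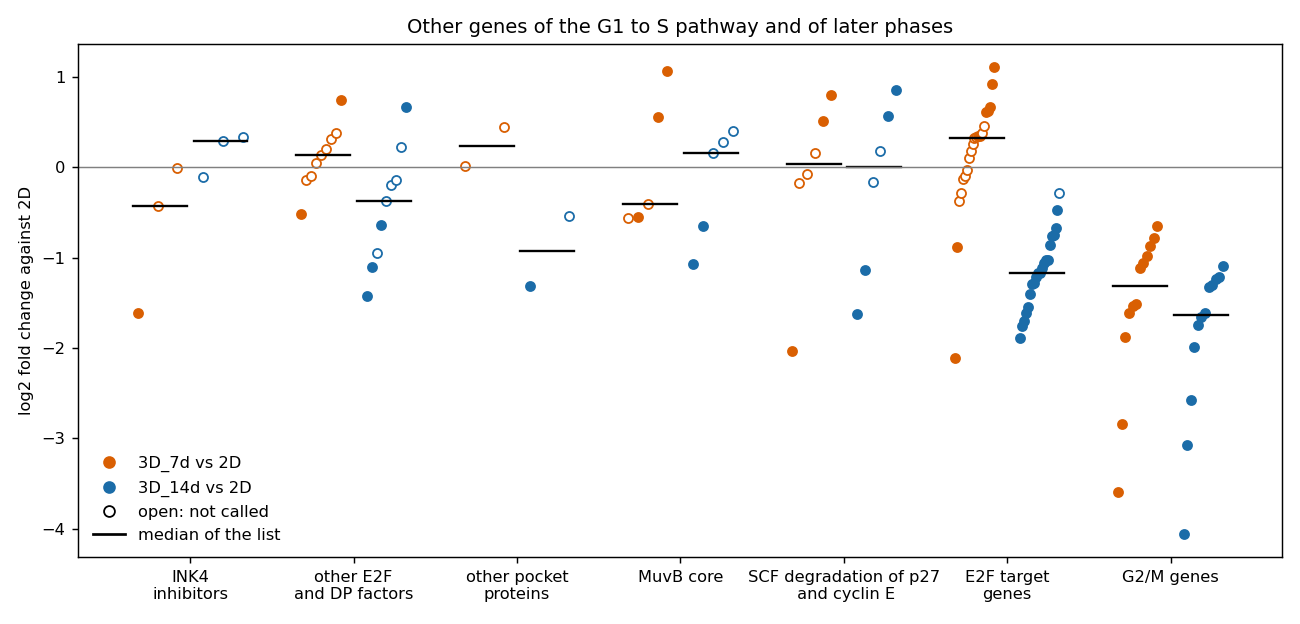
Log2 fold change against 2D (y axis) of single genes in 7 lists of the pathway (x axis) at day 7 and day 14, filled where called and open where not, with black lines at the median of each list. The E2F target genes have a median of 0.33 at day 7 and -1.17 at day 14, and all G2/M genes lie below 0 at both days. CCND1, CDKN1A, CCNA2, the CDK-activating kinase with CDC25A and the FOXO factors are not plotted.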

How the data were processed

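RNA of MEC1 cells was sequenced in 9 samples as single reads, with SMART-Seq v4 libraries. Per the labels and the submitters' processing notes, the authors used Trimmomatic (version 0.39), STAR (version 2.5.3a) and featureCounts (version 1.6.4) on GRCh38, and the deposited values are raw counts per gene symbol, without normalization. The strand setting is not given in the sources used here. Samples were grouped by culture condition. Genes above 1 CPM in at least 3 samples were kept (13463 of 59050). In R (version 4.3.3), edgeR (version 4.0.16) was used for TMM scaling, 1 model of all 9 samples and the quasi-likelihood test, with Benjamini-Hochberg adjustment over all genes. Ratios of RPKM were compared with exact permutation tests. Pathway genes were named when called, at most the 3 with the smallest p per list and comparison, and values of other listed genes were added where a count needed them. A gene of the lists is counted with them but not reported here on its own. The 10 genes and all lists were chosen with earlier results of these data known.

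Alternatives were DESeq2 (version 1.42.0) and its size factors, total counts alone, TMM without immunoglobulin, ribosomal protein and mitochondrial genes, filterByExpr or no filter, only the 6 samples of a comparison, the replicate number as a block, a removed trend with gene length (loess, span 0.4), the block and the trend in 1 fit, calls limited to log2 fold changes of at least 1 in size, and 9 fits without 1 sample each. The pipeline was tested on simulated counts of 3D_7d vs 2D. Sequences are from RefSeq tables of GRCh38.p14.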

Additional observations from a re-analysis of the deposited data

Results flagged for a closer look

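The following genes differed between day 7 and day 14 by the test of that difference in the edgeR model (3D_14d vs 3D_7d, adjusted p of at most 0.05), so that their change against 2D was not the same at both days. Among the 10 genes of the G1 to S step, the log2 fold change between the days was -0.72 for CCND2, -2.67 for CCNE2, -0.40 for CDK4 and -0.94 for CDK2. The call of CDK4 was lost in 6 of the 9 fits that left out a sample, and those of CCND2, CCNE2 and CDK2 held in all 9.

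Among the pathway genes named by the same rule, those that rose were CDKN2D (1.95) and RBX1 (0.70). Of the E2F targets, CDC6 (-2.32), MCM4 (-2.14), CDC45 (-2.0), RRM2 (-1.62), MCM5 (-1.39) and TYMS (-1.01) fell, and 66.5% of the exonic bases of TYMS are shared with other genes. Lower values were also found for CDC25A (-2.14), RBL1 (-1.76), E2F2 (-1.48), E2F8 (-1.33), SKP2 (-1.05), CCNA2 (-0.97), LIN52 (-0.67), CUL1 (-0.63), CDK1 (-0.62), BUB1 (-0.59), AURKA (-0.52), E2F4 (-0.52) and LIN9 (-0.51). Without 3D_14d replicate 1, RBX1 was at 0.39 and BUB1 at -0.36, neither called, and CUL1 at -0.39, still called. The samples of RBX1 overlapped between the days. RBX1 was also not called with the length trend removed, alone (0.33) or with the replicate block (0.31). The same held with filterByExpr (0.69) and with only the 6 samples of that comparison (0.73). The call of RBX1 was lost in 6 and that of LIN9 and BUB1 in 8 of the 9 fits that left out a sample, and those of CUL1 and E2F4 without 3D_7d replicate 2 or 3, of LIN52 without 3D_7d replicate 2 and of CDK1 without 3D_7d replicate 1 (-0.43).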

How the results depend on the processing

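Under the 11 alternatives and the 9 fits that left out a sample, no called fold change of the 10 genes changed its direction, and the causes of the moved values were not tested. Among values that were not called, the difference between the days became 0.17 for CCNE1 and 0.15 for E2F1 without 3D_7d replicate 1, 0.01 for E2F1 without 3D_14d replicate 1 and -0.13 for RB1 without 3D_14d replicate 3. With only the 6 samples of a comparison, 8 of the 10 genes were called at day 7, 6 of them higher. Among all 13083 genes of that fit, 3800 were called higher and 3897 lower. In such fits 20 other pathway genes were higher at day 7 and 1 between the days. DESeq2 called 5 of the 10 genes higher at day 7, beside 3167 of all 13463 genes. It called 5 other pathway genes higher at day 14, beside 2891 of all genes. Between the days, 1 of the 10 genes became higher with DESeq2, its size factors, TMM without the 3 gene classes, the length trend removed, or that trend and the replicate block together, which left 1 pathway gene higher. Without a filter 1 of the 10 genes was lower at day 7, and 1 pathway gene was higher at day 14.

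Total counts alone moved the median of all genes to -0.160 at day 7 and -0.183 at day 14. They left 1 of the 10 genes higher at day 14, and 7 pathway genes higher at day 7 and 1 at day 14. Over all genes, 2985 higher and 2853 lower calls at day 7 became 2157 and 3575, and 2557 and 2318 at day 14 became 1604 and 3246. A minimum log2 fold change of 1 left, of the 10 genes, 1 lower at day 7, 1 in all at day 14, 0 higher and 1 lower, and 1 between the days, also lower. It left 14 pathway genes at day 7 (3 higher, 11 lower), 0 higher at day 14, and 22 between the days (1 higher, 21 lower).

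Leaving out 1 sample at a time gave the following ranges. Of the 10 genes, 3 to 5 were higher at day 7 (5 without 3D_14d replicate 1). At day 14, 5 to 9 were called, with 2 to 4 higher (2 without any 1 of the 2D samples or without 3D_14d replicate 3) and 3 to 5 lower, the lowest counts being those without 2D replicate 3. Between the days, 0 to 2 were higher (1 without 3D_7d replicate 2, 2 without 3D_14d replicate 3). Other pathway genes called higher numbered 6 to 18 at day 7 (6 without 2D replicate 1, 8 without 2D replicate 2 or 3 or 3D_7d replicate 3), 0 to 7 at day 14 (0 without 2D replicate 2 or 3, 7 without 3D_14d replicate 1) and 1 to 5 between the days (1 without 3D_7d replicate 3, 5 without 3D_14d replicate 2). The difference between the days ranged from -0.43 to 0.17 for CCNE1, from -0.13 to 0.57 for RB1 and from -0.78 to 0.15 for E2F1.

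The replicate numbers were not taken as pairs. Samples of the same number correlated at -0.10 to 0.185 in their deviations from the group means, and 6 of 18 best matches in another group had the same number. All of these matches lay between 2D and 3D_14d. There, samples of the same number correlated at 0.185, 0.108 and 0.0931, and those of other numbers at -0.135 to 0.0399. A pairing of these 2 groups was not tested further. With the replicate block, 6, 9 and 3 of the 10 genes were called at day 7, at day 14 and between the days, in place of 5, 9 and 4: CDK2 was gained at day 7 (0.46) and CDK4 lost between the days (-0.41). At the depth of these libraries, replicates differed by more than counting error.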
